A study of Populus ussuriensis with 9 samples.

Results

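In drought-treated leaves of the poplar Populus ussuriensis, 43 genes lost transcript in each of 2 steps, first between wild type (WT) and the transgenic line OE14, and again between OE14 and the line OE18. They were chosen by measured values from these same libraries, out of 22848 genes tested and 29764 in the table. A tested gene reached 1 FPKM in 3 or more of the 9 libraries, where FPKM is the number of sequenced fragments scaled to gene length and to library size. A member of the set had a log2(group mean FPKM + 1) that was lower by 1 or more in OE14 than in WT, and lower by 1 or more again in OE18 than in OE14. The set was 0.188% of the genes tested. Because the rule used all 3 genotypes, the differences between them are given below as a description, with no test.

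All plants were 6 months old, grown in a greenhouse, and had water withheld. The sample descriptions name 2 weeks of drought and the treatment protocol names 1 week without water, and which applies was not settled. OE14 carries moderate and OE18 high overexpression of LbDREB6, per the labels, and the promoter that drives the transgene is not given in the sources used here. Only 1 line stood for each level, which means that level and line cannot be told apart, and no watered plants were analysed here. Each genotype had 3 libraries of fully expanded leaf, described by the series as biological replicates, and nothing says whether each came from its own plant. The WT columns bear the letter C in place of the WT titles, and their genotype was inferred because they alone fit no transgenic title.

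DREB proteins are plant transcription factors with an AP2/ERF DNA-binding domain. They bind the dehydration-responsive element in promoters and are best known for switching on genes that protect cells during drought, cold or salt stress. Overexpression of such factors in other plants often raises stress tolerance and often slows growth. Locus IDs come without gene names in the table and were not annotated here. Function, promoters and proteins of the 43 genes are therefore not described, and the leaf label was not checked against marker genes. The transgene itself was not analysed here.

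The library totals by which FPKM was scaled, recovered from the steps in the values, were 10988010 to 16221919 reads. They nearly equal the reads summed over the genes of the table, for example 13389816 and 13383202 in WT library 1. They are thus totals of reads assigned to genes, and the full sequencing depth is not shown. Of the 29005 genes above 0 in at least 2 libraries, 29005 gave whole reads and a whole gene length within 0.0001, some of them once a shared multiplier was applied to the counts of that gene. The recovery searched for values that come out whole, so this count is partly built in and is no check of the reads by itself. FPKM is a level per unit length, so levels may be compared between genes. In bulk leaf RNA, fewer cells of a type and less RNA per cell cannot be told apart.

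The set was dominated by transcripts that were abundant in WT. The WT mean was 1000 FPKM or more in 10 members, between 100 and 1000 in 17 and under 100 in 16. The 10 members were among 35 genes in all with a WT mean of 1000 FPKM or more. Among the 100 highest genes of each genotype, 13 members stood in WT, 5 in OE14 and 0 in OE18. Their median rank by level went from 252 in WT to 1720 in OE14 and 8348 in OE18. The members had median levels of 228.6 FPKM in WT, 52.4 in OE14 and 12.6 in OE18. Over all tested genes the medians were 7.64, 8.06 and 8.39 FPKM. The rule cannot take a gene below 3 FPKM in WT, and it reaches falls of low genes less readily than those of abundant genes.

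The 43 genes together held a visible share of the leaf transcriptome in WT and very little in OE18. Their FPKM summed to 28362, 27216 and 26183 in the WT libraries, to 6381, 6310 and 6382 in the OE14 libraries, then to 1806, 1703 and 1748 in the OE18 libraries. As a share of the library's summed FPKM, WT libraries gave 5.20% ± 0.19, OE14 libraries 1.21% ± 0.0078 and OE18 libraries 0.313% ± 0.0067 (SD, n = 3 each). As a share of the recovered library totals of reads it was 4.06% ± 0.12, 1.01% ± 0.010 and 0.288% ± 0.0032 (SD, n = 3 each). The 10 most abundant members supplied 76.4% of the set's summed FPKM in WT, 73.3% in OE14 and 72.2% in OE18, so the division between abundant and other members changed little while the total dropped.

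**Figure D1:**
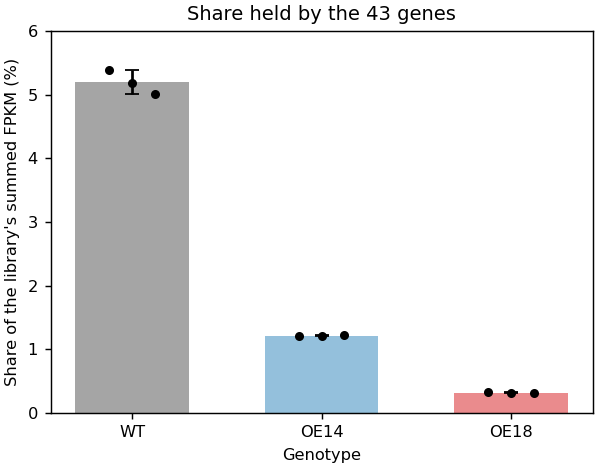
Share of the summed FPKM of each library that the 43 genes held, in percent, for WT, OE14 and OE18. Bars are means of 3 libraries with their SD, points are libraries; WT held 5.20%, OE14 1.21% and OE18 0.313%.

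The most abundant member in WT was Potri.008G062300.v3.0, on chromosome 8 by its ID, with a gene length of 1094 bases. It stood at 3453, 3120 and 2835 FPKM in the WT libraries, 428.3, 428.3 and 434.2 in OE14, then 132.6, 130.3 and 121.9 in OE18. It was the gene of rank 4 in WT, 116 in OE14 and 647 in OE18. The OE14 mean was 13.7% of the WT mean and the OE18 mean was 29.8% of the OE14 mean. The difference in mean log2(FPKM + 1) was -2.86 for the first step and -1.74 for the second (limma SE 0.060 each).

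The largest fall on the log2(group mean FPKM + 1) scale, -6.13, belonged to Potri.012G022400.v3.0, on chromosome 12, with a gene length of 1042 bases. Its values were 1057, 1043 and 947 FPKM in WT, 142.2, 145.2 and 135.8 in OE14, then 13.9, 13.9 and 12.8 in OE18. OE18 kept 1.34% of the WT mean, a 74.9-fold difference. Without the pseudocount a low member on chromosome 15, described below with its few reads, had the larger ratio. The second step of this gene was the larger one, -3.29 against -2.84 (limma SE 0.051 each), and also the largest second step of the set on the log2(FPKM + 1) scale. It was the gene with the lowest OE18 level among the 10 abundant members, with 540 reads over the 3 OE18 libraries against 38527 in WT.

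The other abundant members differed in which step was the larger on the log2 scale. In FPKM the first step was the larger for each of the 43, since OE14 kept at most 47.7% of the WT mean. The second most abundant, on chromosome 13, had 2891, 2674 and 2515 FPKM in WT, 681, 699 and 701 in OE14, then 121.9, 119.5 and 107.8 in OE18. The fifth in WT level, on chromosome 1, had 2277, 2232 and 2254 FPKM in WT, 475, 497 and 483 in OE14, then 58.6, 52.8 and 55.4 in OE18. Both had the larger log2 difference in the second step, the first with -1.95 and then -2.57 (limma SE 0.056) and the other with -2.21 and then -3.10 (SE 0.043).

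The eighth and ninth in WT level had the larger log2 difference in the first step. The eighth, also on chromosome 1, had 1412, 1379 and 1383 FPKM in WT, 117.5, 137.7 and 133.6 in OE14, then 45.1, 47.1 and 44.7 in OE18. The ninth, on chromosome 19, had 1359, 1275 and 1215 FPKM in WT, 114.7, 120.5 and 125.4 in OE14, then 45.2, 42.5 and 42.9 in OE18. OE14 retained 9.31% and 9.37% of their WT means, and both genes had nearly the same steps, -3.42 and -1.48 for the eighth and -3.40 and -1.44 for the ninth (limma SE 0.053 and 0.049). In these 2 genes, as in each member described above, the WT, OE14 and OE18 libraries formed 3 ranges without overlap.

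The remaining abundant members kept more. The third, on chromosome 10, had WT, OE14 and OE18 means of 2472 ± 141, 383 ± 7.4 and 133 ± 13 FPKM (SD, n = 3 each). The fourth, also on chromosome 10, had 2435 ± 118, 957 ± 110 and 247 ± 34 FPKM (SD, n = 3 each) and the highest OE14 level of the set. The sixth, on chromosome 3, had 2236 ± 78, 545 ± 4.1 and 267.5 ± 7.1 FPKM (SD, n = 3 each). Its second step, -1.02, was the second smallest of the set, and it kept the highest OE18 level. The seventh, on chromosome 6, had 1897 ± 44, 776 ± 34 and 214.5 ± 4.9 FPKM (SD, n = 3 each). With a gene length of 4046 bases it gave the most reads of any member, 279039 in WT and 32996 in OE18.

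**Figure D2:**
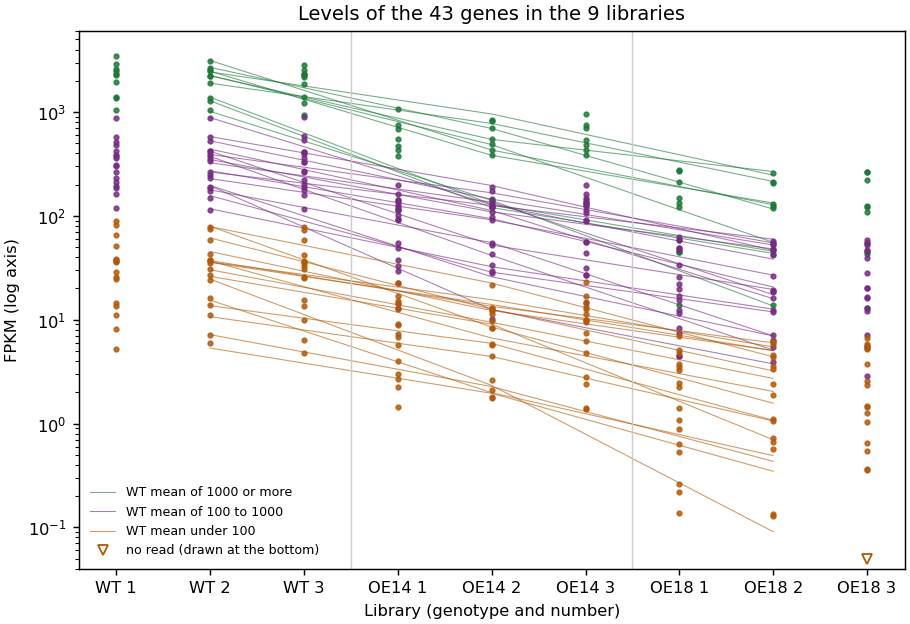
FPKM of each of the 43 genes in each of the 9 libraries on a log axis, with lines joining the means of WT, OE14 and OE18 and colours for the WT level. Every gene descends in both steps; the medians for WT, OE14 and OE18 were 228.6, 52.4 and 12.6 FPKM, and 1 gene had no read in 1 OE18 library.

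Among the 17 members with a WT mean between 100 and 1000 FPKM, the OE14 means ran from 12.5 to 195.9 FPKM and the OE18 means from 3.76 to 59.6. The steepest first step of the whole set was in this band. That gene, on chromosome 10, had 211.8, 183.6 and 188.8 FPKM in WT, 13.02, 10.1 and 14.4 in OE14, then 4.50, 3.92 and 2.85 in OE18. OE14 held 6.43% of its WT mean, and the first step was -3.87 (limma SE 0.13).

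A gene on chromosome 17 had steps of -3.14 and -2.81 (limma SE 0.070), both among the larger of the set. Its values were 375, 381 and 364 FPKM in WT, 37.9, 42.98 and 43.9 in OE14, then 4.44, 5.49 and 5.35 in OE18, a 73.3-fold difference from WT to OE18. Another gene of the same chromosome had the smallest overall loss. It had 267.3, 262.7 and 262.2 FPKM in WT, 126.9, 122.5 and 128.2 in OE14, then 62.9, 56.8 and 59.2 in OE18, which left 22.6% of the WT mean. Its steps were alike, at -1.06 and -1.07 (limma SE 0.044).

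The 16 members with a WT mean under 100 FPKM spanned 5.33 to 79.4 FPKM in WT and 0.0910 to 5.99 FPKM in OE18. One on chromosome 13 had 82.4, 77.4 and 78.5 FPKM in WT, 7.31, 8.27 and 9.89 in OE14, then 1.41, 1.86 and 1.43 in OE18, so that OE18 held 1.98% of the WT mean. Mean levels in OE18 were under 1 FPKM in 5 members, and 9 members had fewer than 100 reads over the 3 OE18 libraries. For these the second step rests on few reads and is understated by the pseudocount.

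The member closest to silence, on chromosome 15, had 24.4, 24.1 and 25.3 FPKM in WT. The OE14 libraries had 3.00, 2.62 and 1.37 FPKM. In OE18 it had 0.138, 0.135 and 0 FPKM, which came from 2 reads in all against 483 in WT. Relative to the library totals, WT had 253 times the reads of OE18, with an exact 95% binomial interval of 69.7 to 2097 that covers counting error only. The gene was picked by the rule and for its few OE18 reads. The interval makes no allowance for that choice, so it is a description and the ratio may be too high. No other member lacked reads in a library, and 35 members had 100 or more reads in every WT and OE14 library.

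Step sizes overlapped over the set. The first step had a median of -1.82 (range -3.86 to -1.06) and the second a median of -1.59 (range -3.29 to -1.0005), on the scale of log2(group mean FPKM + 1). Over all tested genes the medians were 0.07 and -0.01. Between WT and OE18 the median difference was -3.63 on that scale. Without the pseudocount, OE14 kept a median of 27.4% of the WT level, OE18 a median of 27.6% of the OE14 level, and OE18 a median of 5.58% of the WT level (range 0.370% to 22.6%). On the scale of log2(group mean FPKM + 1) the first step was the larger one in 23 members and the second in 20. In 6 the steps lay within 0.25 of each other. This division depends on the pseudocount. Without it the second step was the larger in members counted here for the first, on chromosomes 15, 11 and 8. Their ratios were 10.6 then 25.6, 3.16 then 5.25, and 3.20 then 3.47. No member moved the other way.

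Members with the larger first step had median steps of -2.46 and -1.45, and kept 15.5% of the WT level in OE14 at the median. Members with the larger second step had median steps of -1.33 and -1.999, and kept 38.0%. These contrasts follow largely from dividing the members by the same steps, and are a description. Both kinds ended at similar points, with 5.25% and 7.72% of the WT level in OE18 at the median. Both kinds also occurred at every level of abundance. On the scale with the pseudocount, the first step was larger in 5 of the 10 members at 1000 FPKM or more. It was larger in 9 of the 17 between 100 and 1000, and in 9 of the 16 below 100. The count below 100 FPKM depends on the pseudocount, which shortens the second step most in low members. Steps of -2 or less were found in 18 members for the first and in 11 for the second. In 3 members both were of this size.

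**Figure D3:**
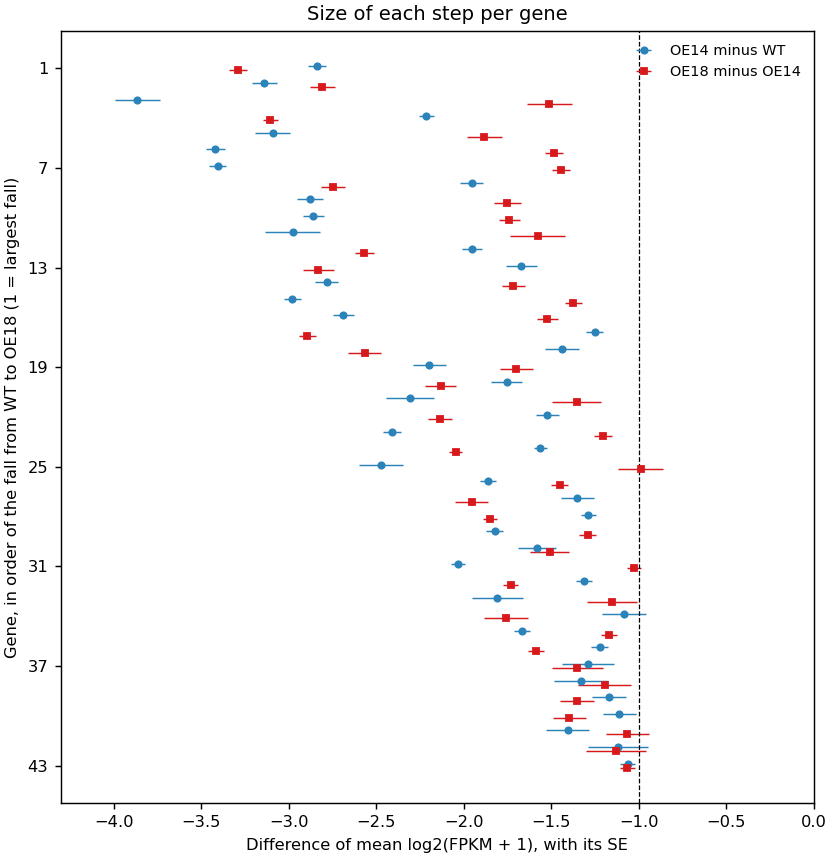
Difference in mean log2(FPKM + 1) for each of the 43 genes, with the limma SE, for OE14 minus WT and for OE18 minus OE14; genes are ordered by the fall from WT to OE18 and the dashed line marks -1. On this scale, which includes the pseudocount, the first step was larger in 23 genes and the second in 20.

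Members were numerous among the deepest losses of OE18. A log2 difference from WT to OE18 of -2 or less was found in 1.34% of the tested genes, 307 in all, of which the 43 members were 14%. At -3 or less there were 80 genes, 32 of them members. At -4 or less there were 25 genes, 17 of them members, and at -5 or less 6 genes, 4 of them members. These counts follow partly from the rule, which asks for a total of -2 or less.

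Among all tested genes, 1.93% fell by 1 or more in the first step (OE14 against WT) and 9.39% in the second (OE18 against OE14). The 43 members were 9.73% of the 442 genes that fell in the first step and 2.00% of the 2146 that fell in the second. Of the other genes in the first group, 268 stayed within 1 of their OE14 level in OE18 and 131 rose by 1 or more. Both steps use the OE14 libraries. Among genes at a WT mean of 100 FPKM or more, 27 of the 103 that fell in the first step were members (26.2%), where 33.4% of all genes at that level fell in the second step. Below 100 FPKM, 16 of 339 were members (4.72%), where 8.61% of all genes fell in the second step. A gene with an OE14 mean under 1 FPKM cannot fall by 1 again on the log2(FPKM + 1) scale. How many such genes each group held was not counted, so these percentages are a description only.

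**Figure D4:**
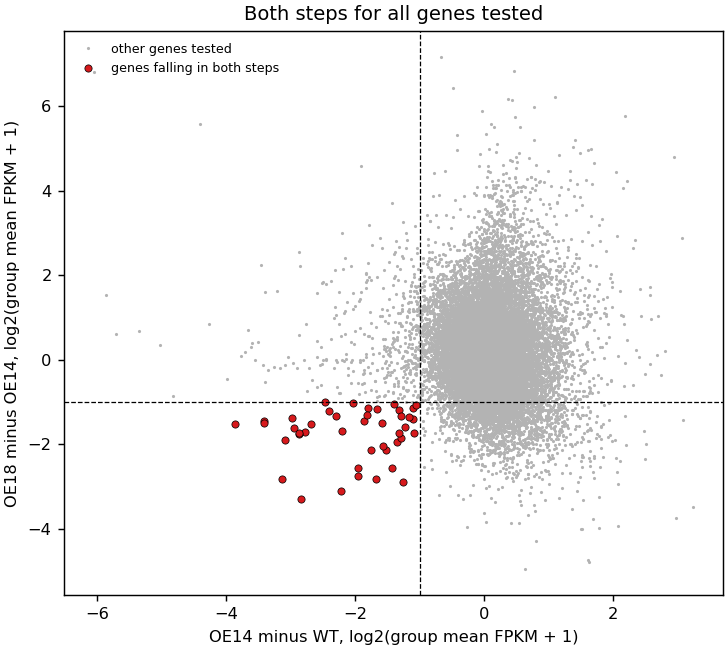
Difference in log2(group mean FPKM + 1) for OE14 minus WT (horizontal) and OE18 minus OE14 (vertical) for 22848 tested genes, with the 43 genes in red and dashed lines at -1. The 43 genes fill the lower left corner, reaching -3.86 in the first step and -3.29 in the second.

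In limma, all 43 members were called lower in OE14 than in WT, where 20.9% of the tested genes were, and lower in OE18 than in OE14, where 38.8% were (Benjamini-Hochberg adjusted p under 0.05). Both calls together were made for 7.04% of the tested genes. In all 43 members every WT library stood above every OE14 library and every OE14 library above every OE18 library, an order found in 8.92% of the tested genes. The rule used the same contrasts, so nothing is read from these counts.

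Values in libraries that had no part in the choice were available by leaving out 1 library of each genotype, choosing members on the other 6, and reading both steps in the 3 left out. With the libraries numbered 1 left out, 45 genes met the rule on the other 6 libraries, and 38 of them also fell by 1 or more in both steps in the libraries left out. With the libraries numbered 2 left out it was 35 of 44, and with those numbered 3 it was 37 of 43. Of the genes chosen on 6 libraries, 41, 41 and 42 were among the 43 members. Over all tested genes 0.206%, 0.188% and 0.197% fell this far in both steps in these libraries. These were 47, 43 and 45 genes, of which 39, 37 and 38 were members, so this share is no separate background. In the libraries left out, all 45, 44 and 43 genes were lower in both steps, with median first steps of -1.84, -1.76 and -1.84 and median second steps of -1.56, -1.58 and -1.62. The libraries left out come from the same lines as the others, so the values describe agreement between libraries of a genotype only. With 1 library a genotype these values carry no test.

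The genes nearest the thresholds were mixed in level. Just inside the threshold of the first step lay genes with first steps of -1.06, -1.08 and -1.10 and WT means of 264.1, 13.6 and 5.33 FPKM, and just outside it genes with -0.94, -0.94 and -0.94 and WT means of 24.1, 31.4 and 12.7 FPKM. At the threshold of the second step, the nearest members had -1.0005, -1.02 and -1.05, with WT means of 15.4, 2236 and 37.2 FPKM. The nearest genes outside had -0.996, -0.99 and -0.98, with WT means of 38.2, 26.1 and 42.7 FPKM.

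At the median, replicate libraries differed little against these steps. The median coefficient of variation over the members came to 3.61% for WT, 4.89% for OE14 and 8.29% for OE18. Single members reached 12.1% in WT, 36.6% in OE14 and 86.6% in OE18, and the upper quartile in OE18 was 22.1%. Counting alone would give medians of 1.58%, 2.83% and 7.31%. Other tested genes with at least the lowest WT level of the set had medians of 5.37%, 5.497% and 6.19%. These genes share only the floor of 5.33 FPKM in WT, while the members had a WT median of 228.6 FPKM. Level was therefore not matched, and a difference in spread apart from level was not tested.

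Gene length enters the rule through FPKM, which is scaled to length, so it is given as a description. The members had a median length of 1081 bases (range 236 to 4224), against 1850 for all tested genes and 1548 for the 399 genes that fell in the first step only. Of the members, 31 were shorter than the median tested gene. Within bands of WT level the gap was not uniform. The bands are broad, so level was not matched within them. At a WT mean of 1000 FPKM or more, the median length was 994.5 bases in the 10 members and 1381 in the other 25 genes, and 80.0% and 72.0% were shorter than the median tested gene. Between 100 and 1000 FPKM it was 1437 in 17 members and 1586 in 672 others, with 58.8% and 61.6% shorter than that median. Below 100 FPKM, down to the lowest WT level of the set, it was 943 in 16 members and 1969 in 12957 others, with 81.2% and 44.9% shorter. A part of length in the differences between genotypes was not tested.

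The members were scattered over the reference genome to which the locus IDs belong, with their chromosomes read from the IDs. Chromosome 8 held 5 members among 1391 tested genes, chromosome 10 held 5 among 1577, chromosome 19 held 3 among 571 and chromosome 17 held 3 among 719. Chromosome 1 held 2 among 2674 and chromosome 7 held 0 among 822, and 2 members lay on unplaced loci. A single pair of members were neighbours in the order of the tested loci, on chromosome 8. The next closest pair, on chromosome 13, were 22 loci apart.

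The neighbouring members had gene lengths of 1039 and 1970 bases. The first had 309, 335 and 330 FPKM in WT, 134.6, 131.8 and 141.1 in OE14, then 17.0, 18.5 and 16.7 in OE18. The second had 301, 246 and 269 FPKM in WT, 91.7, 98.4 and 91.7 in OE14, then 22.1, 19.4 and 20.4 in OE18. Both had the larger log2 difference in the second step, -1.25 and then -2.89 (limma SE 0.050) in the first, and -1.52 and then -2.13 (limma SE 0.068) in the second.

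The loci around this pair were looked at after the pair was seen. Of the 5 tested loci on each side, 10 in all, limma called 3 lower in both steps (Benjamini-Hochberg adjusted p under 0.05), where 7.04% of all tested genes were. The locus just before the pair had means of 12.2 ± 0.093, 1.77 ± 0.15 and 0.616 ± 0.19 FPKM (SD, n = 3 each), and missed the set with a second step of -0.78. The locus just after had 797.5 ± 66, 410.6 ± 16 and 233.7 ± 21 FPKM (SD, n = 3 each), with steps of -0.96 and -0.81. The third locus before the pair had 144.4 ± 5.0, 99.4 ± 2.2 and 40.3 ± 1.2 FPKM (SD, n = 3 each). Whether these loci share sequence was not examined, and reads of near-identical genes cannot be told apart in these values.

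**Figure D5:**
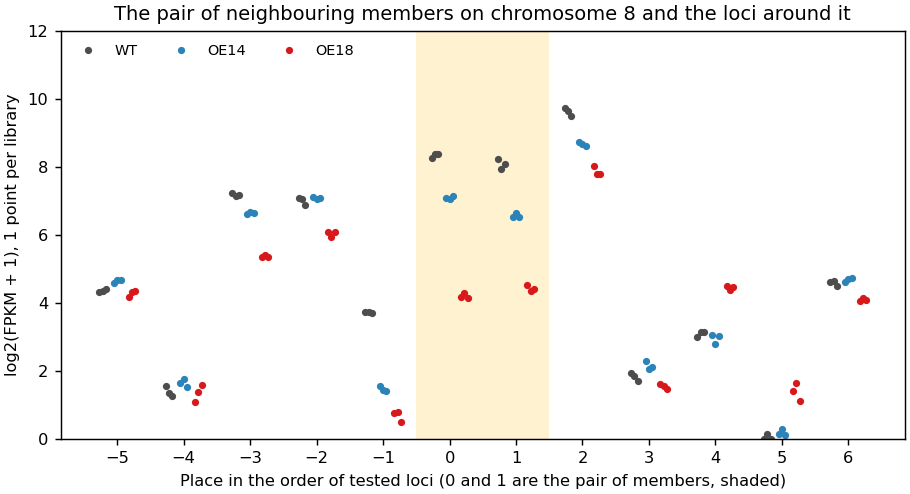
Levels as log2(FPKM + 1), 1 point per library, of the pair of neighbouring members on chromosome 8 (shaded) and of 5 tested loci on each side, in the order of the locus IDs. The loci just before and just after the pair descend from WT through OE14 to OE18 as well, with WT means of 12.2 and 797.5 FPKM, while those farther away to the right do not share the pattern.

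The neighbours of all members were counted in the same way. Of the 84 loci next to a member, those of the pair included, 5 fell by 1 or more in the first step (5.95%, against 1.93% of all tested genes) and 8 in the second (9.52%, against 9.39%). Of the 420 loci within 5 places of a member, 10 fell by 1 or more in the first step (2.38%) and 47 in the second (11.2%). The median steps were 0.07 and -0.15 for the 84 loci and 0.07 and -0.07 for the 420. These differences from the background were not tested.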

How the data were processed

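FPKM values of 9 libraries were deposited by the authors in 1 table. HISAT2 2.1.0 and Bowtie2 2.2.3 appear in the submitters' processing notes. Counting tool, build, annotation and strand handling were not given in the sources used here. Library totals, reads and gene lengths were recovered from the steps of the values, and the recovery and the fit were tested on simulated data. Values were fitted as log2(FPKM + 1) in R 4.3.3 by limma 3.58.1, using a mean-variance trend, over all 9 libraries and 22848 genes. Tests were two-sided with Benjamini-Hochberg adjustment and a threshold of 0.05. Python 3.11.15 applied the rule. P-values weigh differences between genotypes against the spread between libraries of a genotype. They do not cover variation between lines of 1 level, and whether they cover variation between plants is not known. The members, lists and choices were made with earlier results of these data known. The members described singly were those with the highest WT levels, the largest falls, the values nearest the thresholds and neighbouring loci. In addition, the smallest loss and the fewest reads were described, chosen after their values were seen. 32 gene lists defined by gene description, and promoter motifs, could not be applied without annotation.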

Additional observations from a re-analysis of the deposited data

How the results depend on the processing

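The rule gave 43 members. With a pseudocount of 0.1 it gave 80, including all 43. A pseudocount of 0.5 gave 54, the same sum per library (TPM) 59, quantile normalization 50 (40 of the 43), and median-of-ratios scaling 44 (41 of the 43). Leaving out each library in turn gave 42 to 45. Under these scalings all 43 members were lower in both steps, while the median of all genes from WT to OE18 moved from 0.03 to -0.14 with quantile normalization. Quantile normalization also changed the division of the limma calls, from 8869 higher and 8876 lower to 7959 and 10117 in OE18 against OE14, and from 7297 and 4777 to 6038 and 5770 in OE14 against WT. The numbers of calls stayed within 1.5 times of the first fit in the 18 settings run for each comparison. With the replicate number as a replicate block, limma called 12252 genes in OE14 against WT, 17827 in OE18 against OE14 and 18223 in OE18 against WT, against 12074, 17745 and 18158 without it, and all 43 members in both steps. Deviations of same-numbered libraries correlated at 0.14, 0.25 and -0.08 between OE14 and OE18. Between WT and OE18 the values were 0.22, -0.09 and 0.18, and between WT and OE14 they were -0.14, -0.08 and 0.002. Some libraries correlated best with their own number and others did not, and whether the numbers pair the samples was not settled. Voom on recovered reads without TMM and the libraries left out in threes were chosen after seeing the data, and voom with TMM, the gene lists and the promoter motifs were not run. Depth limits the second step in the 9 members with under 100 reads in OE18.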

Other observations

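In each genotype, 1 library was the highest of the 3 in more than an even share of the members. In WT the library numbered 1 was the highest in 27 of the 43 genes (62.8%), against 35.1% of other tested genes with at least the lowest WT level of the set. The WT library numbered 3 was the lowest in 24 (55.8%, against 34.7%). In OE14 the library numbered 3 was the highest in 24 members (55.8%, against 33.7%), and in OE18 the library numbered 1 in 23 (53.5%, against 39.4%). The median deviation of the members from their genotype mean was 0.03 in WT library 1, -0.03 in WT library 3, 0.03 in OE14 library 3 and 0.03 in OE18 library 1, on the log2(FPKM + 1) scale. These deviations are small against the smallest step of the rule. The differences were not tested.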
